A study of Mus musculus with 6 samples.

Results

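RAB GTPases are the largest branch of the RAS superfamily and mark the membranes of the cell. Each RAB is lipid-anchored by prenylation, is switched on by an exchange factor, recruits effectors such as motors and tethers while bound to GTP, and is switched off by a GTPase-activating protein of the TBC family. Different RABs serve the Golgi, endosomes, lysosomes and secretory vesicles, and in melanocytes RAB32, RAB38 and RAB27A serve the melanosome, a pigment organelle related to the lysosome. The RAB genes described here are the 55 symbols, of 14915 in the deposited table, that consist of RAB, a number and at most 1 letter. Names such as RAB11FIP1 or RAB3GAP1, which belong to effectors and regulators, fall outside them.

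The levels come from RNA-seq of B16F10, a mouse melanoma cell line, in 3 wild-type (WT) libraries and 3 libraries of the genotype ZBTB5-S127A (S127A). In the second genotype a serine of the transcription factor ZBTB5 is replaced by alanine. All 6 libraries come from cells given TNFα, an inflammatory cytokine, with amino acids limited, so each difference is one between genotypes under that treatment. The sources used here do not say how the substitution was made or whether the S127A line is a single clone. The labels do not state that replicates came from separate cultures. The p-values therefore reflect only the spread between these libraries, which may be technical. Levels are transcripts-per-million values (TPM), which are scaled by gene length and can be compared between genes. They are given as mean ± SD over n = 3 libraries. A log2 change is the difference in log2(TPM + 1) of S127A from WT, a scale that compresses changes of low genes. A gene counts as changed at a limma adjusted p below 0.05 over the 10348 genes with a mean of at least 1 TPM.

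The genotypes differed across most of the transcriptome, and every result below stands on that background. Across the tested genes 90% changed, of which S127A was higher for 40.2% and lower for 49.8% of all tested. The median gene stood at −0.12 on the log2 scale, which moved to −0.02 with TMM factors and to −0.0034 with quantile normalization. The 10 melanocyte markers summed to between 15408 and 15705 TPM in the WT libraries and to between 27.8 and 33.3 TPM in the S127A libraries, where 5 of the 10 reached a mean of 1 TPM and none was at 0 throughout. PMEL stood at 3103 ± 34.5 and 4.44 ± 0.29 TPM, TYRP1 at 4886 ± 104.7 and 7.71 ± 1.42 TPM, and SOX10 at 341 ± 4.64 and 0.603 ± 0.116 TPM. The defining markers of the labelled melanoma cell type were thus high in WT and nearly absent in the libraries labelled S127A. Whether the S127A libraries come from the same cell line as WT was not tested, and an effect of the substitution and a difference between the cells themselves cannot be told apart in any result below. The 10 fibroblast markers summed to 16.2 to 17.2 TPM in WT and 301 to 313 TPM in S127A, with LUM and THY1 at 0 in all S127A libraries. COL1A2 alone gave 274.7 ± 6.56 TPM of the S127A sum, and POSTN went from 7.79 ± 0.912 to 0.0667 ± 0.0231 TPM. Immune markers, 7 of 10 listed, summed to 7.35 to 8.28 TPM and 48.6 to 51.7 TPM, of which CD14, at 0 in WT, gave 45.1 ± 1.77 TPM in S127A, while PTPRC, ITGAM and CSF1R stayed at 0.0833 TPM or less on average in both. Endothelial or epithelial markers, 9 of 10 listed, summed to 1.37 to 1.76 TPM and 63.7 to 64.1 TPM, of which KRT18 gave 62.8 ± 0.362 TPM in S127A. There PECAM1, CDH5, KDR, TEK, CDH1 and VWF averaged 0.133 TPM or less. ZBTB5 itself averaged 15.5 ± 0.54 TPM in WT against 8.90 ± 0.569 TPM in S127A, a level that does not show the substitution. The part of these differences in the RAB results was not tested. In bulk RNA, fewer cells of a type and less RNA per cell cannot be told apart.

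The RAB genes split evenly between rises and falls, and a smaller share of them than of all genes changed at least 2-fold. Of the 55 genes 43 were abundant enough to be tested, and 36 of these changed (83.7%, beside 90% of all genes), 18 higher and 18 lower in S127A. Changes of at least 2-fold numbered 8 lower and 2 higher, together 23.3% of the tested members against a background of 35.4% (19.9% lower and 15.5% higher). The share of members lower was thus near that of all genes, and the share higher was below it. These counts move with the pseudocount, to 10 lower and 2 higher with 0.1 (background 38%) and to 6 lower and 1 higher with 5 (background 25.5%). With 0.1, RAB8B and RAB17 joined the lower members, and with 5, RAB20, RAB36 and RAB33A dropped out. The median absolute log2 change was 0.42 for the tested members and 0.69 for all genes. Library values of the groups did not overlap for 34 of the 43 members, or 79.1%, beside 90.2% of all genes. These shares describe the members and were not tested against the rest. Of the tested members 1 (RAB33A) lay under 1 TPM in WT and 5 (RAB6B, RAB27A, RAB32, RAB38 and RAB39B) lay under 1 TPM in S127A, so those 6 reached the test through the genotype in which they were high.

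**Figure D1:**
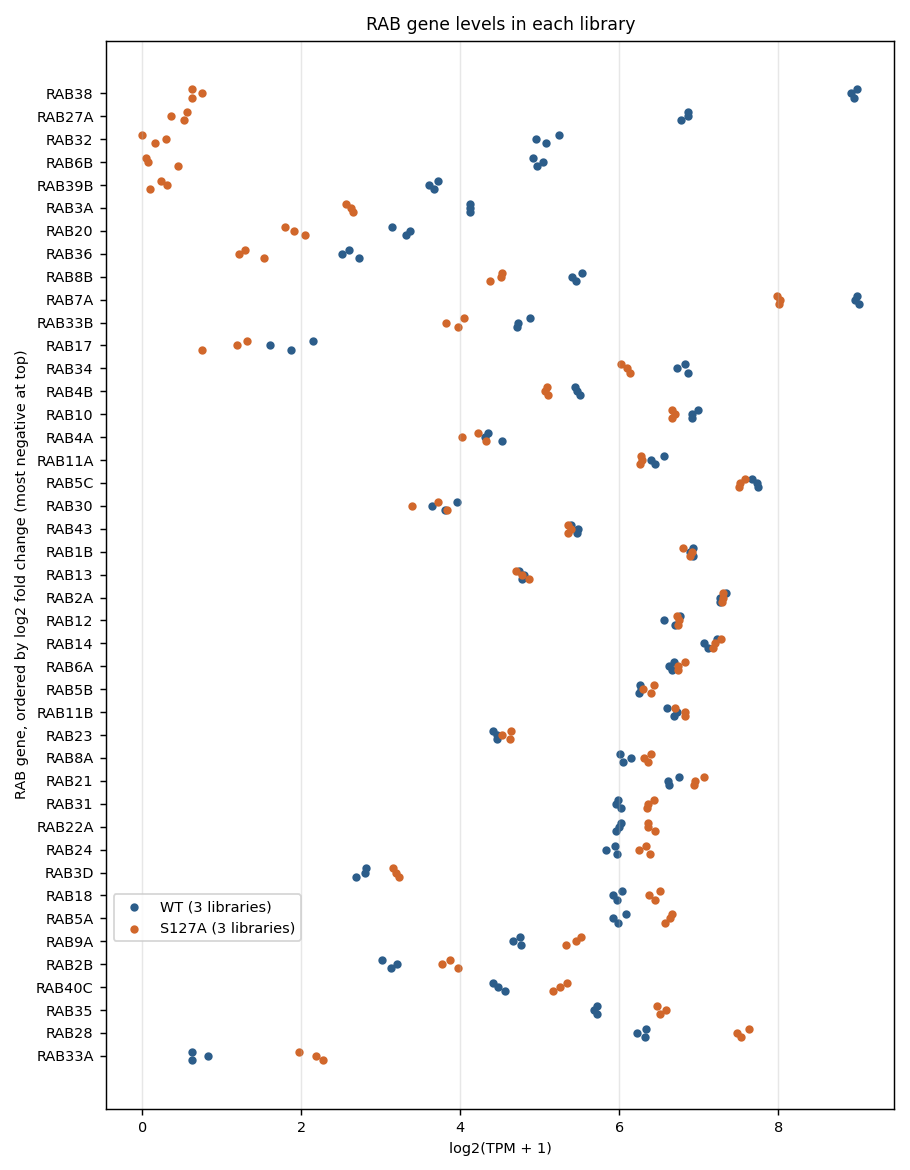
Level of each of the 43 tested RAB genes in each library as log2(TPM + 1), with 3 WT points and 3 S127A points per gene, ordered by log2 fold change. RAB38, RAB27A, RAB32, RAB6B and RAB39B lie under 1 TPM in all 3 S127A libraries, while RAB2A, RAB13 and RAB1B overlap between the genotypes.

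The upstream sequence of the melanosome genes and of the member with the largest rise among abundant RABs is shown for the motifs that melanocyte and inflammatory transcription factors are known to bind. Of the 55 members 45 were searched, with 54 start sites from the RefSeq promoter table (GRCm38.p6, the assembly of mm10). RAB38 and RAB27B were not among the 45. A member outside the 45 may lack an entry in that table or may have been left out of the search. The search covered the 250 bases before each start, on both strands, for the E-box CACGTG, for CATGTG, the core of the M-box bound by MITF, and for the AP-1 sites TGACTCA and TGAGTCA. Capitals mark the matches. RAB27A has a distal start (chr9:73044560-73044809, plus strand) and a proximal start (chr9:73063898-73064147, plus strand), RAB32 lies on the minus strand (chr10:10558266-10558457, cut 58 bases short of the RefSeq start to leave out an annotated exon) and so does RAB28 (chr5:41708180-41708429).
RAB27A distal: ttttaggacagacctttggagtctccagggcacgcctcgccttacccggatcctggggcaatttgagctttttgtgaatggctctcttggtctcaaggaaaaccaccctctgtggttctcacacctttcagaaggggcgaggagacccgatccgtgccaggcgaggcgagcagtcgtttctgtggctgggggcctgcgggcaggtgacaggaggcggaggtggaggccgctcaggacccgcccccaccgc
RAB27A proximal: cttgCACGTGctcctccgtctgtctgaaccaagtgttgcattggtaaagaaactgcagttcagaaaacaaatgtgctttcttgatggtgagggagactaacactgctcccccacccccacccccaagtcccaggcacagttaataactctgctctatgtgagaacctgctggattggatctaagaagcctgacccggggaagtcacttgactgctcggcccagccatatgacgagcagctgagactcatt
RAB32: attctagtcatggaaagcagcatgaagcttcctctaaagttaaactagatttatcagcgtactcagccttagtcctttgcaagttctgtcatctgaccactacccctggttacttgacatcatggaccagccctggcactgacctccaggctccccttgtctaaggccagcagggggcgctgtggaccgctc
RAB28: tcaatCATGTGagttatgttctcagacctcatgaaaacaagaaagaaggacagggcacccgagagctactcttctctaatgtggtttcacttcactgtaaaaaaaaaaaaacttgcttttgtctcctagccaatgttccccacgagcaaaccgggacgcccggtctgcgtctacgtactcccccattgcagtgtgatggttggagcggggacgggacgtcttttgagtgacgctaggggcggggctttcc
RAB27A had a CACGTG that began 246 bases before the proximal start and no match before the distal start. RAB32 had none of these motifs in its window, and RAB28 had a CATGTG that began 245 bases before the start. Among the RAB promoters 5 of 54 held CACGTG (9.26%, beside 6.02% of 32851 promoters in the table), 4 held CATGTG (7.41%, beside 12.3%) and 1 held an AP-1 site (1.85%, beside 4.46%). The RAB promoters may not have been chosen by the same rule as those of the table, so these percentages only describe each set. A match here describes letters in a window and not binding.

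The melanosome RABs were almost absent from the S127A libraries. RAB38 (ENSMUSG00000030559.8, chromosome 7, 88430273 to 88491572, plus strand, mm10), which with RAB32 directs melanin-making enzymes to the melanosome, held 505.76, 482.96 and 493.34 TPM in WT and 0.54, 0.69 and 0.54 TPM in S127A. It was the second most abundant RAB in WT, level with RAB7A within the range of the libraries, and ranked 41 in S127A. The log2 change was −8.28 (SE 0.0506, adjusted p = 2.37e-15). RAB27A (ENSMUSG00000032202.11, chromosome 9, 73044854 to 73097629, plus strand), which couples mature melanosomes to actin motors, held 115.31, 115.40 and 108.80 TPM in WT and 0.48, 0.29 and 0.44 TPM in S127A. Its log2 change was −6.35 (SE 0.0659, adjusted p = 2.81e-14). RAB32 (ENSMUSG00000019832.5, chromosome 10, 10545002 to 10558265, minus strand) held 37.00, 29.88 and 32.75 TPM in WT, and in S127A it was listed at 0 in replicate 1 and stood at 0.23 and 0.12 TPM in the others. The log2 change of RAB32 was −4.94, with SE 0.0976 and adjusted p = 2.43e-12. The size of these changes depends on the pseudocount. With 0.1 and with 5 in place of 1, the log2 change was −9.49 and −6.48 for RAB38, −7.83 and −4.45 for RAB27A, and −7.42 and −2.90 for RAB32. In none of these 3 genes did the genotypes overlap, as in 90.2% of all genes, and each kept its call under all 16 alternative settings. The fourth member, RAB27B, the secretory paralog of RAB27A, went the other way at a very low level, with 0.02, 0 and 0.05 TPM in WT and 0.57, 0.86 and 0.59 TPM in S127A. Its mean stayed under the 1 TPM needed for a test.

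MITF, the master factor of the melanocyte lineage, averaged 143 ± 9.67 TPM in WT against 8.17 ± 0.487 TPM in S127A. RAB38, RAB27A and RAB32 were lower in S127A as well, and RAB27B was not. The other melanocyte markers were also lower, and their part and that of MITF in the RAB result were not tested.

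Late endosome, lysosome and autophagosome RABs were mostly lower in S127A, with 5 of 7 tested members lower, 2 higher and a median log2 change of −0.98. Of all genes 49.8% were lower and 40.2% higher, with a median of −0.12. RAB7A (ENSMUSG00000079477.9, chromosome 6, minus strand), which drives late endosomes to fuse with lysosomes, was the most abundant RAB in both genotypes. It held 506.28, 498.12 and 514.90 TPM in WT and 251.68, 258.55 and 257.08 TPM in S127A, a log2 change of −0.98 with SE 0.0273 and adjusted p = 3.96e-11, just short of 2-fold. Of its 31-base transcript words 18.4% occur in other genes, among them the pseudogene Rab7-ps1. RAB39B (ENSMUSG00000031202.5, chromosome X), a trafficking GTPase best known from neurons, held 12.14, 11.17 and 11.77 TPM in WT and 0.18, 0.24 and 0.07 TPM in S127A, with a log2 change of −3.45 (adjusted p = 7.96e-12). With pseudocounts of 0.1 and 5 the change of RAB39B was −5.54 and −1.69. RAB39B shares 17.2% of its words with other genes, among them the opposite-strand gene Gm15063. RAB20, a GTPase of phagosome maturation, held 7.80, 9.29 and 8.95 TPM in WT and 2.46, 2.76 and 3.12 TPM in S127A, with a log2 change of −1.36 (adjusted p = 5.13e-08), and 24% of its words occur in other genes, among them the overlapping gene E230013L22Rik. RAB36, which binds the lysosome-positioning protein RILP, held 5.06, 4.73 and 5.60 TPM in WT and 1.45, 1.32 and 1.89 TPM in S127A, with a log2 change of −1.27 (adjusted p = 2.22e-07). The same pseudocounts gave −1.61 and −0.81 for RAB20 and −1.67 and −0.63 for RAB36. All S127A libraries lay below all WT libraries in each of these genes, while 90.2% of all genes had no overlap in either direction. RAB34, a relative of RAB36 that also acts in cilium formation, fell from 112.83, 105.03 and 115.45 TPM in WT to 64.14, 67.42 and 69.48 TPM in S127A. The members that rose were RAB9A, which returns cargo receptors from late endosomes to the Golgi, from 25.84, 24.28 and 26.14 TPM in WT to 44.89, 42.90 and 39.33 TPM in S127A, and RAB24, linked to autophagosome clearance, from 59.5 ± 2.98 to 79.3 ± 3.95 TPM. RAB24 shares 50.5% of its transcript 31-base words with other genes, among them the opposite-strand gene Prelid1, and strand use in counting is not given, so its level is uncertain.

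Early endosome RABs shifted by little, and mostly upward. Of 6 tested members 5 were higher and 1, RAB5C, was lower, with a median log2 change of 0.36, and none reached 2-fold. Over all genes 40.2% were higher, 49.8% were lower and 35.4% changed at least 2-fold. The RAB5 paralogs, which organise fusion of incoming endocytic vesicles, moved apart. RAB5A held 66.88, 59.52 and 62.25 TPM in WT and 100.25, 98.49 and 94.32 TPM in S127A, with a log2 change of 0.63 (adjusted p = 1.63e-07). RAB5C, the most abundant of them, held 202.22, 211.67 and 213.26 TPM in WT and 190.33, 181.85 and 181.60 TPM in S127A, with a log2 change of −0.18 (adjusted p = 4.02e-04). The RAB5C call was lost with quantile normalization (−0.02, adjusted p = 0.603). Its adjusted p ran from 0.00029 to 0.603 in 16 alternatives. RAB5B moved from 75.68, 76.65 and 75.23 TPM in WT to 85.34, 77.88 and 83.46 TPM in S127A, a rise (adjusted p = 0.0185) that was lost without WT replicate 3 (adjusted p = 0.0525), S127A replicate 1 (0.0635) or S127A replicate 3 (0.0635), over a range of 0.000331 to 0.0635. RAB22A, a GTPase of early endosome sorting, rose from 64.09, 63.03 and 61.05 TPM in WT to 81.21, 81.57 and 86.76 TPM in S127A. Its relative RAB31 rose from 62.14, 61.52 and 64.07 TPM in WT to 85.76, 81.63 and 80.58 TPM in S127A. RAB21, which carries integrins inward, rose by 0.32 on the log2 scale. The libraries of the genotypes did not overlap in any of the 6 members, as in 90.2% of all genes.

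Recycling endosome RABs went both ways, with 2 of 8 tested members higher, 4 lower and 2 not passing, and a median log2 difference of −0.07. Among all tested genes 40.2% were higher and 49.8% lower. RAB35, a regulator of fast return to the plasma membrane, rose from 51.3 ± 0.905 to 91.4 ± 3.65 TPM (log2 change 0.82, adjusted p = 3.54e-09). RAB17, a GTPase of polarised cells, was low throughout and fell from 2.72 ± 0.702 to 1.15 ± 0.424 TPM. RAB4B fell from 42.56, 43.18 and 44.61 TPM in WT to 33.18, 32.53 and 33.29 TPM in S127A, but 82.3% of its 31-base words occur in other gene models, among them Gm21983, so its level is uncertain. RAB11A, the core GTPase of the recycling endosome, fell from 93.56, 83.47 and 86.62 TPM in WT to 76.53, 76.91 and 75.97 TPM in S127A, and its paralog RAB11B rose from 96.42, 105.31 and 101.85 TPM in WT to 103.33, 112.96 and 112.84 TPM in S127A. The rise of RAB11B was narrow (adjusted p = 0.0333) and was lost in 6 of 16 alternatives, among them those without WT replicate 1 (0.131), WT replicate 3 (0.0604), S127A replicate 2 (0.113) or S127A replicate 3 (0.117), over a range of 0.000716 to 0.131. The fall of RAB4A from 19.45, 18.85 and 22.00 TPM in WT to 17.69, 15.30 and 18.98 TPM in S127A (adjusted p = 0.0338, libraries overlapping) was lost in 9 of 16. These included TMM factors (adjusted p = 0.202) and leaving out WT replicate 1 (0.0524), WT replicate 3 (0.143), S127A replicate 1 (0.0559) or S127A replicate 2 (0.142), over a range of 0.0051 to 0.205. With TMM factors, quantile normalization or a common total the list had 4 higher members, since RAB12 and RAB14 then passed as higher.

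RABs of the endoplasmic reticulum (ER), Golgi and trans-Golgi had the most members that did not pass, 4 of 10, while 90% of all genes passed. With 4 higher and 2 lower (40.2% and 49.8% over all genes), their median log2 difference was −0.02. RAB6B, a tissue-restricted paralog of the Golgi GTPase RAB6A, had the largest change in this class. It fell from 29.26, 32.01 and 30.15 TPM in WT to 0.03, 0.05 and 0.37 TPM in S127A. Its log2 change was −4.79 (SE 0.106, adjusted p = 5.94e-12). With pseudocounts of 0.1 and 5 the change of RAB6B was −7.19 and −2.78. RAB33B, which binds the autophagy protein ATG16L1, fell from 28.35, 25.49 and 25.20 TPM in WT to 15.60, 13.14 and 14.67 TPM in S127A. RAB33B shares 22.6% of its 31-base words with other genes, among them the opposite-strand gene Gm38160. Its paralog RAB33A rose from 0.54, 0.78 and 0.54 TPM to 2.94, 3.54 and 3.82 TPM (log2 change 1.45, adjusted p = 8.40e-08), at a level too low for the rule on named genes. With pseudocounts of 0.1 and 5 its change was 2.30 and 0.58. RAB18, known from lipid droplets, rose from 62.1 ± 2.66 to 86.5 ± 4.19 TPM. RAB2B rose from 7.06, 8.21 and 7.78 TPM in WT to 13.59, 12.70 and 14.73 TPM in S127A, though 74% of its 31-base words occur in other gene models such as Gm43766, so the level is uncertain. RAB6A went from 102.09, 97.47 and 100.46 TPM in WT to 112.25, 105.85 and 105.60 TPM in S127A. It rose by 0.11 on the log2 scale (adjusted p = 0.0153), a call lost without WT replicate 2 (adjusted p = 0.0588, range 0.000098 to 0.0588). RAB6A shares 23.1% of its 31-base words with other genes, among them the opposite-strand gene Mrpl48.

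Exocytic RABs had 2 of 6 tested members higher, 3 lower and 1 not passing, beside 40.2% of all genes higher and 49.8% lower. RAB3A, the GTPase of regulated secretory vesicles, held 16.48, 16.47 and 16.39 TPM in WT and 4.90, 5.16 and 5.26 TPM in S127A, with a log2 change of −1.51 (SE 0.0558, adjusted p = 4.26e-10). RAB3D, its paralog of secretory granules, rose from 6.05, 6 and 5.43 TPM in WT to 7.90, 8.14 and 8.39 TPM in S127A. RAB8B held 45.09, 41.47 and 42.81 TPM in WT and 22.10, 21.75 and 19.80 TPM in S127A, with a log2 change of −0.99 (adjusted p = 1.16e-08), while RAB8A, its paralog in transport to the plasma membrane and cilium, rose from 63.23, 70.14 and 64.93 TPM in WT to 83.18, 78.29 and 81.08 TPM in S127A. RAB10, which acts in GLUT4 delivery, fell from 122 ± 3.96 to 101.3 ± 1.32 TPM. The libraries of the genotypes did not overlap in any of these 5 genes, as in 90.2% of all genes.

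RABs outside these classes were higher in 3 of 3 tested members, beside 40.2% of all genes. RAB28 (ENSMUSG00000029128.12, chromosome 5, 41624976 to 41708157, minus strand), a GTPase linked to cilia and photoreceptors, had the largest rise among abundant members, from 79.73, 73.99 and 79.35 TPM in WT to 196.64, 178.01 and 183.96 TPM in S127A, with a log2 change of 1.25 (SE 0.0443, adjusted p = 3.05e-10). It moved from rank 15 of the RAB genes in WT to rank 2 in S127A, where its range overlapped that of RAB5C. RAB40C, which serves as a substrate receptor of a cullin ubiquitin ligase, rose from 20.25, 21.16 and 22.55 TPM in WT to 39.78, 37.25 and 34.83 TPM in S127A. RAB23, an inhibitor of Hedgehog signalling, rose by 0.15 on the log2 scale (adjusted p = 0.0134).

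**Figure D2:**
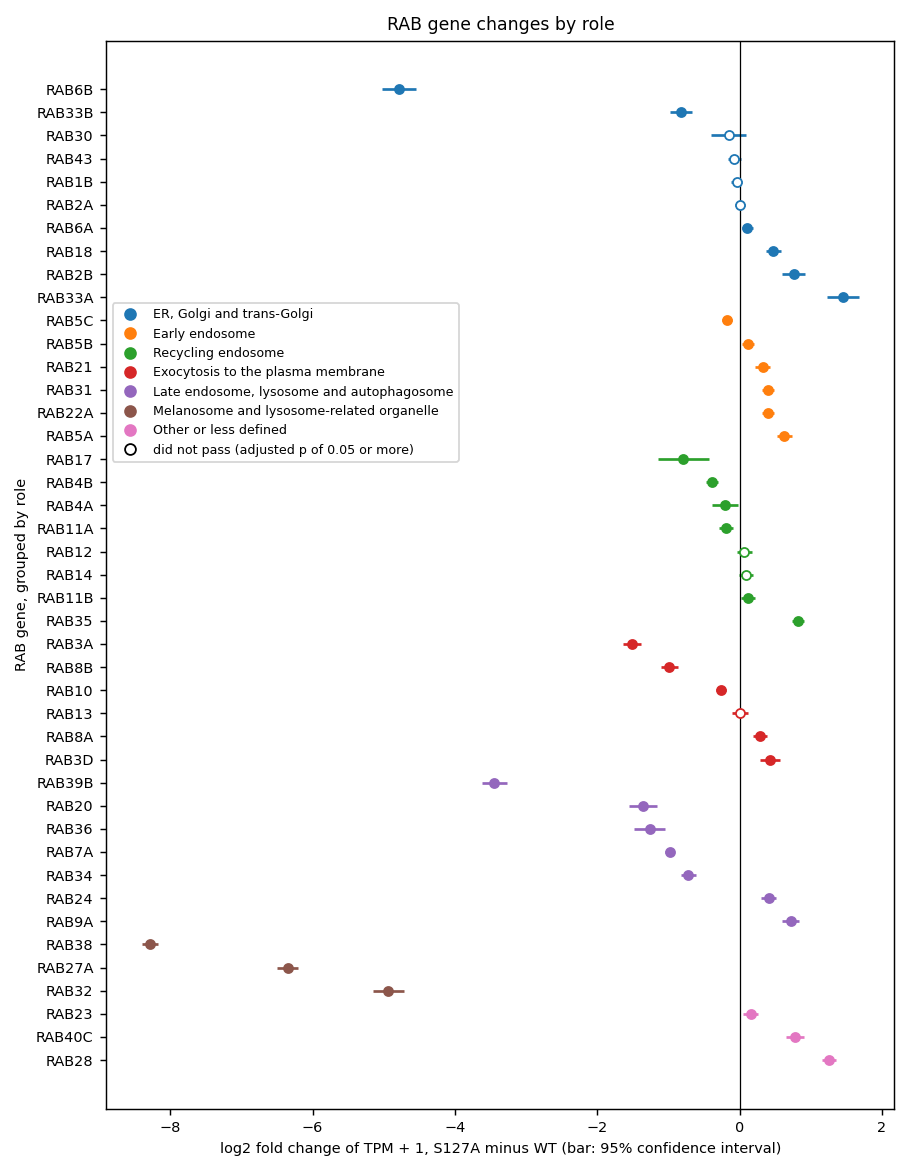
Log2 fold change of TPM + 1 (S127A minus WT) with its 95% confidence interval for the 43 tested RAB genes, coloured by role, with open points for the 7 that did not pass. The 3 tested melanosome members lie at −4.94 or lower, and RAB6B and RAB39B are the other members below −3.

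The 7 members that did not pass were RAB1B, RAB2A, RAB12, RAB13, RAB14, RAB30 and RAB43, and most were abundant. RAB2A, a Golgi and ER GTPase, went from 161.72, 153.02 and 153.21 TPM in WT to 156.65, 157.70 and 155.40 TPM in S127A, a log2 difference of 0.01 (95% interval −0.06 to 0.08). RAB13, known from cell junctions, stood at 26.4 ± 0.707 and 26.5 ± 1.58 TPM (interval −0.11 to 0.12). RAB1B, which controls ER to Golgi transport, stood at 119.9 ± 1.60 and 116 ± 4.84 TPM (interval −0.12 to 0.04). RAB43 shares 77% of its 31-base words with other gene models, among them Gm45140, so its level is uncertain. RAB12, RAB14 and RAB43 had intervals of −0.04 to 0.17, −0.01 to 0.19 and −0.17 to 0.01, and RAB30, the least precise, −0.41 to 0.09. Relative to the median gene these members stood between −0.04 (RAB30) and 0.21 (RAB14) on the log2 scale. RAB2A, RAB12 and RAB14 passed as higher with TMM factors (0.10, 0.16 and 0.19) and with quantile normalization, and RAB14 also with a replicate block (adjusted p = 0.0251). Without WT replicate 1, RAB12 (adjusted p = 0.04), RAB14 (0.0104) and RAB43 (0.0374, lower) passed. Over the 16 alternatives the adjusted p of RAB14 ran from 0.000109 to 0.286, that of RAB12 from 0.00284 to 0.826, that of RAB2A from 0.000299 to 0.984 and that of RAB43 from 0.0374 to 0.862. RAB1B and RAB43 changed sign with TMM factors.

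A further 12 members, RAB3B, RAB3C, RAB9B, RAB19, RAB25, RAB26, RAB27B, RAB37, RAB39A, RAB40B, RAB42 and RAB44, stayed below a mean of 1 TPM over the 6 libraries and were not tested. No mean in either genotype exceeded 0.843 TPM, and RAB26 was listed at 0 in all 6 libraries. RAB42 held 0.10, 0.30 and 0.25 TPM in WT and 0.98, 0.80 and 0.75 TPM in S127A, and RAB37, a GTPase of secretory granules, 0.76, 0.60 and 0.81 TPM and 0.11, 0.22 and 0.27 TPM. RAB25, the epithelial member of the RAB11 group, stayed at 0.70 TPM or less in every library.

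The summed level of the RAB genes was lower in every S127A library than in any WT library, but not without RAB38 and RAB7A. The 55 genes summed to 3506.28, 3383.98 and 3459.41 TPM in WT and 2762.08, 2710.58 and 2727.40 TPM in S127A, a ratio of 0.792. No library overlapped. With 3 libraries a side the two-sided exact permutation test cannot go below its value here, p = 0.1. RAB7A and RAB38 held 14.7% ± 0.225 and 14.3% ± 0.0914 of the pool in WT and 9.36% ± 0.221 and 0.0216% ± 0.00334 in S127A. With RAB38 left out, a choice made after the values were seen, the sums were 2956 ± 50.5 and 2733 ± 26.3 TPM (ratio 0.925). With quantile normalization the log2 ratio of S127A over WT for that sum was 0.0045. With RAB7A left out as well, also after the values were seen, the libraries overlapped (exact permutation p = 0.4). Those sums were 2449 ± 45.7 TPM in WT and 2477 ± 29.9 TPM in S127A.

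By role, the melanosome class averaged 640.4 ± 15.7 TPM in WT against 1.78 ± 0.253 TPM in S127A, or 18.6% and 0.0652% of the pool. The late endosome and lysosome class stood at 728 ± 18.04 and 449 ± 4.69 TPM, the exocytic class at 281 ± 4.13 and 244 ± 0.575 TPM, and the early endosome class at 574 ± 4.41 and 656 ± 17.1 TPM. The recycling class stood at 548 ± 17.5 and 584 ± 4.30 TPM. ER and Golgi RABs stood at 559 ± 10.4 and 551 ± 4.35 TPM, with overlapping libraries (exact permutation p = 0.4). In the other 6 classes the exact permutation p was 0.1, or 0.117 adjusted over the 7 classes, the smallest this design allows.

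**Figure D3:**
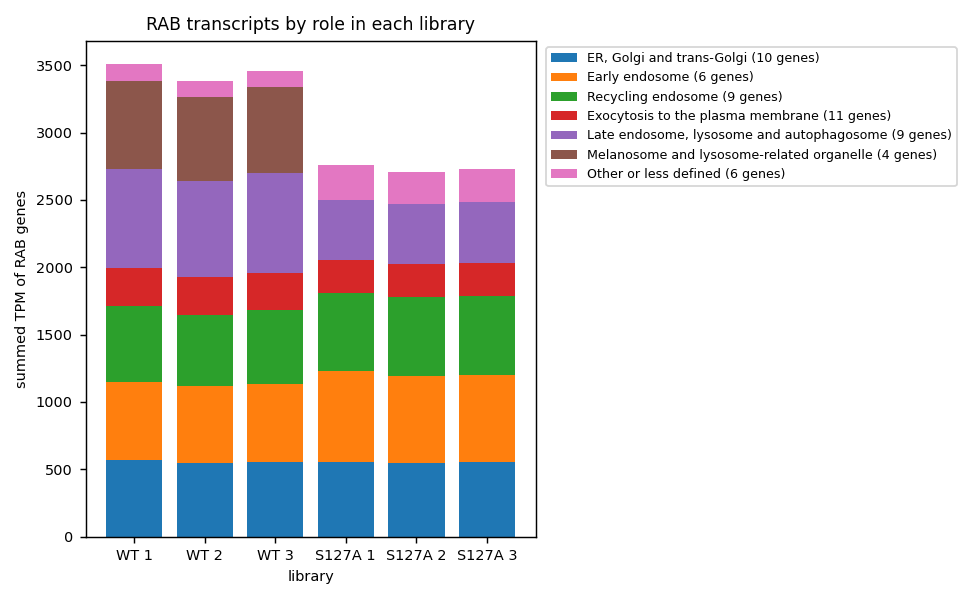
Summed TPM of the 55 RAB genes in each library, stacked by role, with the number of genes per role in the legend. The melanosome class takes 628 to 658 TPM in each WT library and 1.59 to 2.07 TPM in each S127A library, while the ER and Golgi class stays between 546 and 570.1 TPM in all 6.

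Within subfamilies the share of 1 paralog was compared between the genotypes, with no share able to pass the test. The share of a paralog in the summed TPM of its subfamily does not change when a library is scaled by a single factor. In 9 of 13 subfamilies with at least 1 TPM in each genotype the shares of the genotypes did not overlap, each with a two-sided exact permutation p of 0.1 (0.144 adjusted over 13), the smallest this design allows. For single genes the corresponding share without overlap was 90.2% of all genes. RAB27A made up all of the RAB27 pair in WT replicate 2, 99.98% and 99.95% of it in WT replicates 1 and 3, and 45.71, 25.22 and 42.72% of it in S127A, where the pair summed to only 1.08 TPM. RAB3A made up 72.57, 72.75 and 74.87% of the RAB3 group in WT and 37.72, 38.34 and 38.34% in S127A, with RAB3D as the main other member. RAB6A held 77.72, 75.28 and 76.92% of the RAB6 pair in WT and 99.97, 99.95 and 99.65% in S127A, with RAB6B as the rest. RAB8A held 58.37, 62.84 and 60.27% of the RAB8 pair in WT and 79.01, 78.26 and 80.37% in S127A, and the pair's sum averaged 109.2 ± 2.09 TPM in WT against 102 ± 2.81 TPM in S127A. RAB5A held 18.1% ± 1.18 and 26.8% ± 0.635 of the RAB5 group, and RAB33A 2.31% ± 0.58 and 19.2% ± 2.95 of the RAB33 pair.

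Smaller differences without overlap were seen for RAB11A (46.4% ± 2.52 and 41.0% ± 1.32), RAB2A (95.3% ± 0.468 and 92.0% ± 0.604) and RAB34 beside RAB36 (95.6% ± 0.188 and 97.7% ± 0.366). The share of RAB22A beside RAB31 was 50.1% ± 1.10 in WT and 50.2% ± 1.61 in S127A (exact permutation p = 1.0). RAB4A (31.6% ± 1.33 and 34.4% ± 2.19) and RAB9A (99.8% ± 0.0652 and 99.9% ± 0.0563) overlapped between the genotypes, and so did RAB40B beside RAB40C. For RAB32 with RAB38, whose sum in S127A was 0.707 TPM, and for RAB39, no test was made.

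**Figure D4:**
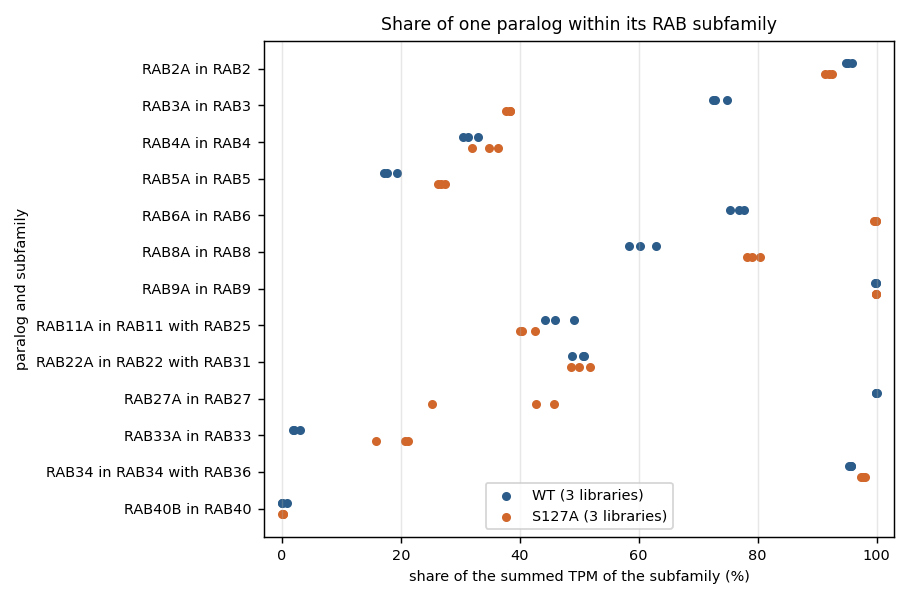
Share (%) of the named paralog in the summed TPM of its subfamily, with 3 WT and 3 S127A points per row. RAB3A averages 73.4% in WT and 38.1% in S127A and RAB6A 76.6% and 99.9%, while RAB22A, RAB9A, RAB4A and RAB40B overlap between the genotypes.

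The enzymes that prenylate and escort RABs were mostly higher in S127A. All 8 genes of this list passed, 6 higher and 2 lower (75% and 25%, beside 40.2% and 49.8% of all genes). Their median log2 change was 0.68 beside −0.12 for all genes. RABGGTA and RABGGTB, the subunits of the geranylgeranyl transferase that lipid-anchors RABs, rose from 7.82 ± 0.592 to 31.9 ± 3.35 TPM (adjusted p = 1.42e-09) and from 115 ± 3.86 to 419.5 ± 9.74 TPM (adjusted p = 1.23e-12). CHM, the escort protein that presents RABs to the transferase, rose from 11.2 ± 0.871 to 22.1 ± 1.63 TPM, and RABAC1, a RAB-binding membrane protein, from 104 ± 6.19 to 169 ± 3.84 TPM. GDI2, chosen after its values were seen, extracts inactive RABs from membranes and fell from 322 ± 6.12 to 265 ± 9.32 TPM.

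Among RAB effectors 15 of 42 tested genes were higher and 22 lower (35.7% and 52.4%, beside 40.2% and 49.8% of all genes), with a median log2 change of −0.15. MLPH, the adaptor between RAB27A and myosin Va, held 110.96, 114.06 and 107.06 TPM in WT and 0.78, 0.90 and 0.74 TPM in S127A. SYTL2, a further RAB27A effector on melanosomes, held 76.75, 76.25 and 74.76 TPM in WT and 0.04, 0.08 and 0.10 TPM in S127A. MYO7A fell from 108 ± 1.48 to 0.713 ± 0.0416 TPM and MICAL1, an actin-oxidising effector, from 25.7 ± 0.505 to 0.153 ± 0.0751 TPM. The rule for named genes picked these 4, which all lay under 1 TPM in S127A and so reached the test through WT. The effectors that follow were chosen after their values were seen. MYO5A, the motor that MLPH binds, fell from 122 ± 2.40 to 38.0 ± 2.20 TPM. Of the other RAB27 effectors listed, SYTL1, SYTL3, SYTL4, SYTL5, UNC13D, EXPH5 and MYRIP averaged 0.803 TPM or less in each genotype and were not tested. EEA1, the tether recruited by RAB5, rose from 17.3 ± 0.254 to 74.2 ± 2.42 TPM. RABEP1, the RAB5 partner rabaptin-5, fell from 60.1 ± 1.96 to 27.6 ± 1.72 TPM and APPL2 from 59.6 ± 3.67 to 6.91 ± 0.262 TPM. APPL1 went the other way from APPL2 and rose from 12.3 ± 0.235 to 25.2 ± 1.25 TPM. LRRK2, a kinase that phosphorylates RAB8A and RAB10, rose from 5.33 ± 0.454 to 27.1 ± 0.496 TPM. RILPL2, which binds RABs so phosphorylated, rose from 17.1 ± 0.371 to 98.5 ± 4.40 TPM, and its paralog RILPL1 fell from 23.5 ± 1.27 to 7.03 ± 1.06 TPM. RAB11FIP5, an effector of RAB11, rose from 4.93 ± 0.686 to 57.4 ± 1.46 TPM. The other RAB11FIP genes listed went both ways. RAB11FIP4 fell from 10.6 ± 0.442 to 0.0867 ± 0.0503 TPM, and so reached the test through WT. RAB11FIP1 was lower (log2 change −0.30), and RAB11FIP2 and RAB11FIP3 were higher (0.28 and 0.19).

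Exchange factors, which load RABs with GTP, were higher for 12 of 37 tested genes and lower for 17 (32.4% and 45.9%). The shares over all genes were 40.2% and 49.8%, and the median log2 difference of the exchange factors was −0.08. CCZ1 and CCZ1B hold the same values in all 6 libraries, and with that pair counted once 11 of 36 were higher. The factors that act on RAB5 went opposite ways, as RIN1 rose from 3.35 ± 0.261 to 156 ± 9.39 TPM (adjusted p = 5.79e-14) and RIN3 fell from 25.8 ± 0.559 to 0.203 ± 0.0808 TPM (adjusted p = 4.68e-13). DENND2A fell from 43.9 ± 0.62 to 0.05 ± 0.0458 TPM and DENND5B from 17.0 ± 1.07 to 0.163 ± 0.0115 TPM. RIN3, DENND2A and DENND5B lay under 1 TPM in S127A and so reached the test through WT. The exchange factors that follow were chosen after their values were seen. The BLOC-3 subunits HPS1 and HPS4, which together activate RAB32 and RAB38, moved in opposite directions. HPS1 rose from 17.9 ± 0.85 to 27.5 ± 1.72 TPM (adjusted p = 2.22e-06) and HPS4 fell from 21.1 ± 0.417 to 16.2 ± 1.63 TPM (adjusted p = 3.99e-04). ANKRD27, an effector of RAB32 and RAB38 that also activates RAB21, rose from 39.7 ± 1.07 to 58.7 ± 1.54 TPM. MON1A, part of the RAB7 exchange factor, fell from 11.2 ± 0.862 to 4.69 ± 0.535 TPM, whereas its partner CCZ1 rose from 88.0 ± 3.67 to 113 ± 2.98 TPM.

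GTPase-activating proteins divided evenly, with 17 of 38 tested genes higher and 17 lower (44.7% each, beside 40.2% and 49.8% of all genes). Their median log2 difference was −0.01. TBC1D15, which acts on RAB7, rose from 41.5 ± 0.642 to 95.2 ± 3.50 TPM. TBC1D16, which acts on RAB4A, fell from 20.8 ± 0.819 to 0.09 ± 0.0265 TPM, SGSM2, which acts on RAB32, from 39.4 ± 0.967 to 6.09 ± 0.894 TPM, and TBC1D9 from 4.35 ± 0.21 to 0.03 ± 0.0173 TPM. TBC1D16 and TBC1D9 lay under 1 TPM in S127A and so reached the test through WT. The passing shares of the exchange factors (78.4%), activating proteins (89.5%) and effectors (88.1%) lay near or below the 90% of all genes.

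**Figure D5:**
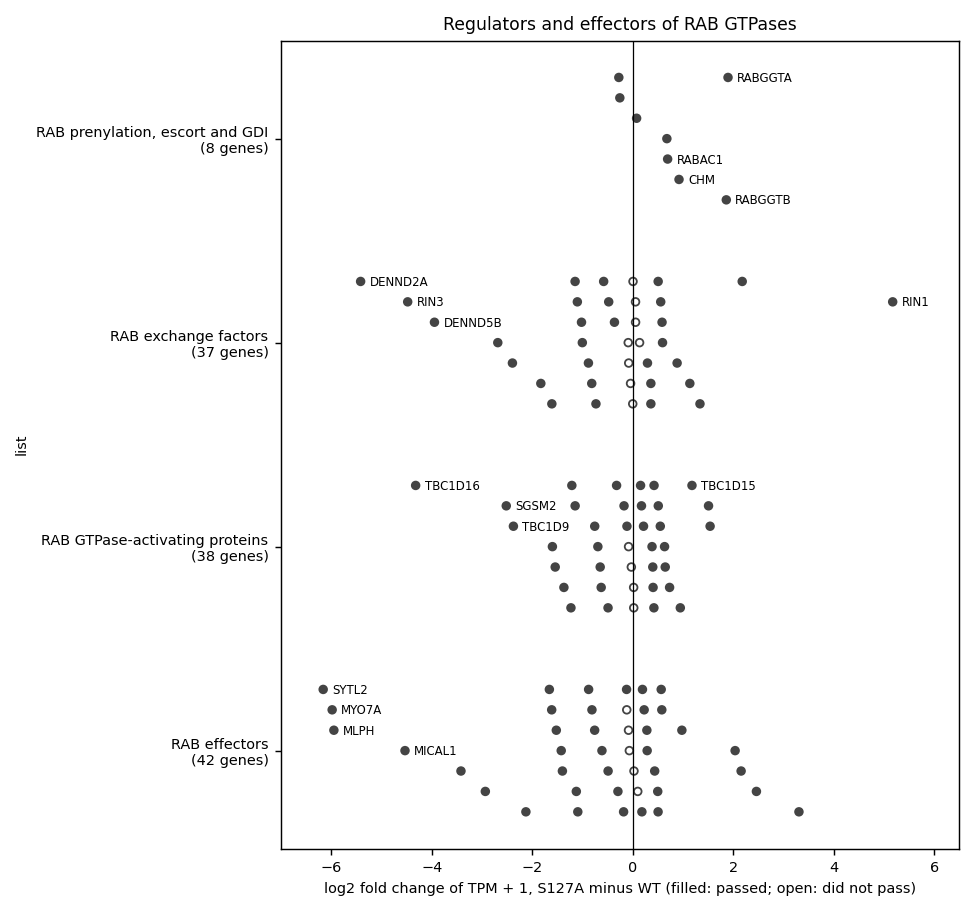
Log2 fold change of TPM + 1 (S127A minus WT) of the tested genes of 4 lists, the number of genes given with each, with filled points for those that passed and labels on the 4 with the smallest adjusted p in each list. SYTL2, MYO7A and MLPH lie near −6, RIN1 lies at 5.17, and 6 of the 8 prenylation and escort genes lie above 0.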

How the data were processed

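The deposited data are 1 table with a TPM value for each gene in each of the 6 libraries, per the file headers, with columns that sum to between 862949 and 864529 TPM in WT and between 830745 and 833332 TPM in S127A. Reads were processed against mm10 per the submitters' processing notes; for the aligner, quantifier and strand setting, none is given in the sources used here. TPM keeps no depth, so errors come from replicate spread alone.

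Groups came from the sample titles. Log2(TPM + 1) of genes with a mean of at least 1 TPM was fitted with limma 3.58.1 in R 4.3.3 (genotype only, mean-variance trend, two-sided, Benjamini-Hochberg over 10348 genes). The fit was tested on simulated data with known changes. Sums and shares were compared by exact permutation with scipy 1.17.1 in Python 3.11.15. Library values are given for members at 5 TPM or more in a genotype that passed and changed at least 2-fold, and for members of subfamilies whose shares are described. RAB7A, RAB37 and RAB42 were added after their values were seen. The 4 genes with the smallest adjusted p are named in each regulator list. A member of the prenylation and escort list is not reported by name here. The members, roles and lists were chosen with earlier results of these data known.

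Symbols were matched to GENCODE vM21 and RefSeq (55 of 55), and each member's 31-base transcript words were searched in all other GENCODE transcripts. Alternatives were other pseudocounts (0.1, 5), filters (none, 5 TPM), scalings (TMM, quantile, common total), limma without trend or robust, a block on replicate number, and each library left out in turn.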

Additional observations from a re-analysis of the deposited data

How the results depend on the processing

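Over 16 alternatives the number of RAB genes called higher ran from 16 to 21 and lower from 16 to 18, and leaving out each library gave 16 to 19 higher and 17 or 18 lower. Of 43 tested members 32 kept their direction and their side of the threshold in every alternative that tested them (RAB17, RAB33A and RAB36 were not tested with the 5 TPM filter), and the other 11 had log2 differences of at most 0.21 in size. With no filter 1 melanosome member, RAB27B, was called higher. The recycling class had 1 higher with no filter or with no trend. It had 4 higher under each of the other scalings (TMM, quantile, common total), and 1 to 3 without single libraries. With quantile normalization 0 early endosome members were lower. The ER and Golgi sum turned to log2 ratios of 0.0784 (TMM), 0.104 (quantile) and 0.0348 (common total), and that of all RAB genes but RAB38 to 0.0045 (quantile). Without single libraries the share difference, S127A minus WT, ran in percentage points from −0.00902 to 0.0533 for RAB9A, from −0.748 to 0.857 for RAB22A and from −0.354 to 0.111 for RAB40B. RAB1B turned to log2 differences of 0.0541 (TMM), 0.0757 (quantile) and 0.0109 (common total), and RAB43 to 0.0183 (TMM). MON1B, a RAB7 exchange factor subunit that did not pass, turned to 0.0883 (TMM), 0.104 (quantile) and 0.0483 (common total). Without single libraries RAB2A ran from −0.0076 to 0.0321, RAB13 from −0.0372 to 0.0453 and MON1B from −0.0367 to 0.0484. The cause was not tested.

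The fit with a replicate block called 19 RAB genes higher and 18 lower. Same-numbered WT and S127A libraries deviated together at r = 0.117, 0.0174 and 0.0279 across tested genes, so the numbers are not taken to pair the libraries. The depth of each library is unknown.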
